A study of Xenopus laevis with 4 samples.

Results

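The forkhead (Fox) family comprises transcription factors that share a winged-helix DNA-binding domain and are sorted into lettered subfamilies. In the RNA-seq table of Xenopus laevis gastrula tissue described here, 57 of 21531 genes were Fox genes. They were selected as every symbol formed by "fox", a subfamily letter, a number and the homeolog suffix. The selection rule used symbols only, but the family itself was chosen with earlier results of these data known. X. laevis is allotetraploid, so most genes occur as a homeolog on a long chromosome (.L) and another on a short chromosome (.S), which the table lists as separate genes. The 57 genes belonged to 16 subfamilies, the largest being foxd with 8 genes and foxa with 6.

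Fox factors mark territories of the early vertebrate embryo. In Xenopus, foxa4 and the foxd4l1 genes are transcribed on the dorsal side of the gastrula, foxa4 in the organizer and the axial mesoderm that forms the notochord and foxd4l1 in the presumptive neural ectoderm. FoxF factors are known from the lateral plate and the visceral mesoderm of the gut wall, and FoxI factors from the ventral ectoderm that gives rise to epidermis and its ionocytes. Other members act in the cell cycle (foxm1), motile ciliogenesis (foxj1), Nodal signaling (foxh1) or insulin signaling (foxo).

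The tissue was ventrolateral mesoderm of gastrulating embryos, with 2 sox8 CRISPR libraries and 2 control libraries. sox8 CRISPR embryos received mRNA for Cas7-11, an RNA-guided enzyme that cuts RNA, together with guides against sox8. For control embryos the sample labels give Cas7-11 and name no guides, so both groups carried the enzyme. According to the authors, every injection also held a tracer, either nRFP mRNA or Dextran Texas Red. Injections were placed in ventral blastomeres, so a library can hold cells that inherited no guide, and the enzyme cuts transcripts while the gene itself stays intact. The labels number the samples as embryos, but the number of embryos behind each library is not given in the sources used here, and p-values measure only the spread between these libraries. The authors list the animals as wild-type X. laevis. No strain name is given, and the age is that of gastrula-stage embryos.

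Expression was measured as normalized counts, that is, reads per gene divided by a size factor per library. Totals of 18189895 to 24108577 reads on genes stood behind each library. The authors selected both sox8.L and sox8.S sequences when designing the guides. Of these, sox8.L had 26.9 and 25.4 normalized counts in the sox8 CRISPR libraries, against 508 and 927 in the controls (log2 fold change -4.66, limma adjusted p = 0.0436). For sox8.S the values were 133.7 and 0 against 14.1 and 43.7 (log2 fold change -1.16, limma adjusted p = 0.925), so a fall was not shown for it. All 26 measured genes of a ventral mesoderm marker list were above 0 in both controls. Only 5.99% and 4.59% of all genes were at 0 in control replicates 1 and 2, so this alone does not show that the tissue was ventral. sox8 CRISPR replicate 2 stood apart from the other libraries, with 17.9% of all genes at 0 where the others had 3.1% to 5.99%. Of the 57 Fox genes, 25 were at 0 in that library, against 6 in sox8 CRISPR replicate 1, 8 and 5 in the controls. Of these 25 genes, 20 were above 0 in sox8 CRISPR replicate 1, with up to 694 normalized counts (foxj1.L). A 0 in sox8 CRISPR replicate 2 alone is therefore given below as a value, without a direction.

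Among the 57 Fox genes, 5 rose and 1 fell in sox8 CRISPR tissue, and all 6 belonged to the foxa, foxd and foxf subfamilies. A gene was called when limma gave an adjusted p under 0.05 (Benjamini-Hochberg over all genes) and an absolute log2 fold change over 0.58 on the log2(normalized count + 1) scale. By this rule 0.334% of all genes were called, 0.144% as higher and 0.19% as lower in sox8 CRISPR. These shares apply to each later count of calls from the same limma fit. The genes that rose were foxa4.L, foxa4.S, foxd4l1.1.L, foxd4l1.1.S and foxd4l1.2.L, and the gene that fell was foxf1.S. The other 51 did not pass. At an unadjusted p under 0.05 there were 13 Fox genes, with 6.79% of all genes at that level. This share applies to each later count at that level from the same limma fit. Over the whole family there were 28 positive and 29 negative fold changes and a median log2 fold change of -0.03, beside -0.16 over all genes. The sign of this Fox median is not settled. It was 0.70 with edgeR and 0.53 with DESeq2. In limma it was positive without sox8 CRISPR replicate 2 and negative without sox8 CRISPR replicate 1. With all libraries, limma gave 1.64 for the 29 Fox genes with a mean of 50 or more normalized counts. For the 28 with a lower mean it gave -0.48.

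Both sox8 CRISPR libraries lay above both controls for 16 Fox genes, with 17% of all genes in that position, and below both controls for 7, with 19.1% of all genes. The fold threshold alone was passed by 47 Fox genes and by 67.3% of all genes, so a large fold change on its own was common in these libraries. On whole reads recovered from the normalized values, edgeR called 8 Fox genes (0.506% of all genes) and DESeq2 called 10 (1.96% of all genes). Both sets held the 6 genes above, together with foxf1.L and foxj1.S, and DESeq2 added foxd3.S and foxb1.S. The edgeR and DESeq2 shares, which cover both directions, apply to each later count of their calls. With each of the 4 libraries left out in turn, limma was refitted, while edgeR and DESeq2 were not. Each of these fits had 1 library in a group and 1 residual degree of freedom per gene. They cannot show whether a call holds without the omitted library. In those fits 20 Fox genes had an unadjusted p under 0.05 without sox8 CRISPR replicate 1 (18.4% of all genes), 17 without sox8 CRISPR replicate 2 (7.11%), 11 without control replicate 1 (2.37%) and 11 without control replicate 2 (4.09%). The fold change of 26 of the 57 Fox genes changed sign in at least 1 of these fits. None of the 6 called genes was among them. This was fixed beforehand, since their groups did not overlap and leaving out a library could not change their sign.

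**Figure D1:**
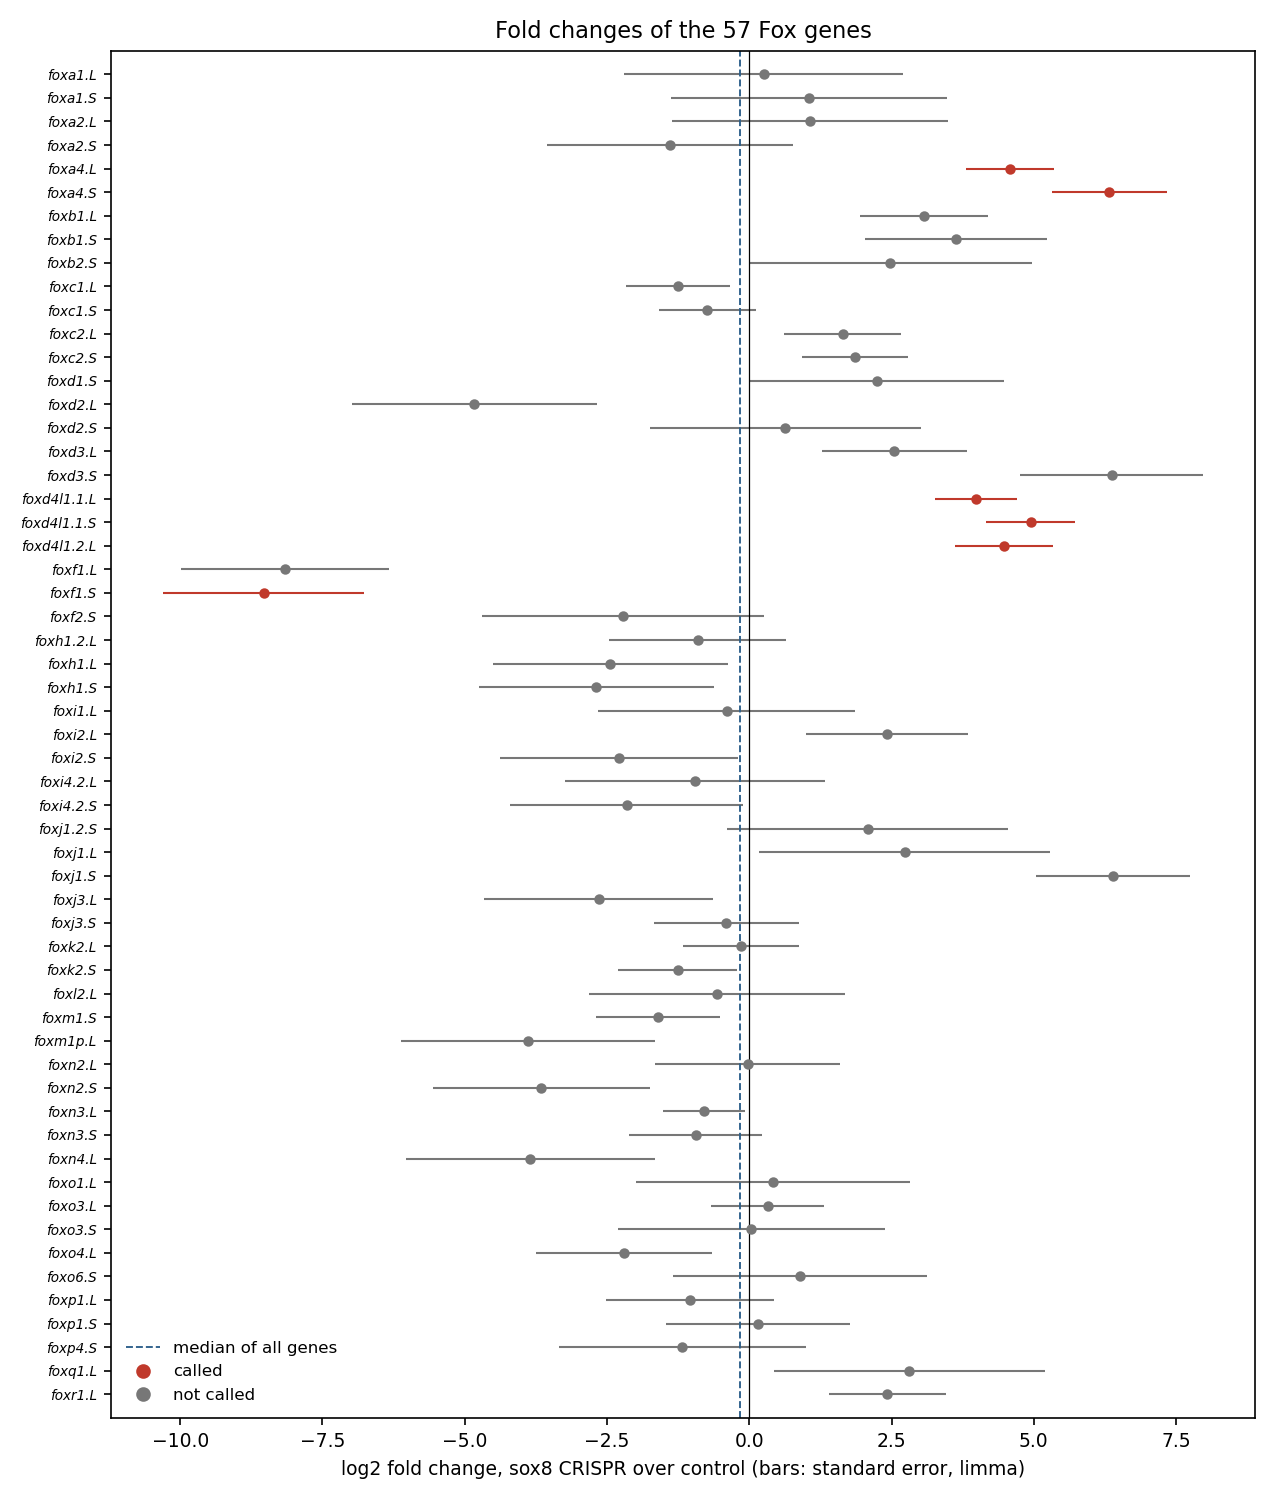
Log2 fold change (sox8 CRISPR over control, x axis) of each of the 57 Fox genes (y axis), with the limma standard error as bars; red points were called and grey points were not, and the dashed line marks the median of all genes at -0.16. The 5 red points on the right are foxa4 and foxd4l1 genes, between 3.98 and 6.33, and the red point on the left is foxf1.S, whose fitted value depends on the pseudocount because both sox8 CRISPR libraries were at 0.

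Among the foxa genes, both foxa4 homeologs rose. FoxA4 is a pioneer-type factor of the organizer, notochord and floor plate in Xenopus. foxa4.L (chr4L:29941904-29945354, v10.1 assembly) had 13950.0 and 3648 normalized counts in the sox8 CRISPR libraries, against 245 and 361 in the controls. The groups were far apart, since the lower sox8 CRISPR library was still well above the higher control. The log2 fold change was 4.58 (SE 0.77, limma adjusted p = 9.56e-03). Leaving out a library in turn gave 3.61 to 5.55, the lowest without sox8 CRISPR replicate 1. In this bulk tissue, more cells that express a gene and more RNA per cell cannot be told apart, and this holds for each result below.

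foxa4.S (chr4S:928542-931985) showed the same direction with a wider spread. It had 11220.4 and 781 normalized counts in sox8 CRISPR tissue, against 40.6 and 31.8 in the controls. The sox8 CRISPR libraries differed from each other by 14.4-fold, yet neither approached the control values. The log2 fold change was 6.33 (SE 1.01, limma adjusted p = 6.39e-03), and it was 4.4 without sox8 CRISPR replicate 1 and 8.25 without sox8 CRISPR replicate 2. Of all reads of the pair, foxa4.L accounted for 55.4% (95% Wilson interval 54.9 to 55.9) and 82.4% (81.1 to 83.6) in the sox8 CRISPR libraries, against 85.8% (80.0 to 90.1) and 91.9% (89.2 to 94.0) in the controls. These intervals cover counting error only, and how reads matching both homeologs were assigned is not given in the sources used here.

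The other foxa genes, foxa1 and foxa2, are known as pioneer factors of endoderm, and foxa2 also of the organizer. Their 4 homeologs were scarce in every library, with at most 42.5 normalized counts, and none was called by limma, edgeR or DESeq2 or had an unadjusted limma p under 0.05. foxa1.L had 42.5 and 0 normalized counts in sox8 CRISPR tissue, against 29.7 and 0 in the controls. foxa2.S had 39.4 and 0, against 14.1 and 17.5. All 4 were at 0 in sox8 CRISPR replicate 2, and the groups overlapped for each of them. Among the foxa genes, calls were thus limited to foxa4. The fold changes of all 4 rested on single libraries: those of foxa1.L, foxa1.S, foxa2.L and foxa2.S each changed sign when 1 library was left out. Whether foxa4 and foxa1 or foxa2 differed in response was not tested.

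Among the foxd genes, the 3 foxd4l1 genes rose. FoxD4L1 (also known as FoxD5) holds cells of the Xenopus neural plate in an immature state. foxd4l1.1.L (chr1L:139693771-139695394) had 5897 and 3418 normalized counts in the sox8 CRISPR libraries, against 201 and 397 in the controls (log2 fold change 3.98, SE 0.72, limma adjusted p = 0.0171). foxd4l1.1.S (chr1S:119080694-119082641) had 4783 and 3315, against 65.6 and 251 (log2 fold change 4.94, SE 0.78, limma adjusted p = 6.13e-03). The sox8 CRISPR libraries lay closer together here than for foxa4, with 1.73-fold between them for foxd4l1.1.L and 1.44-fold for foxd4l1.1.S. Without control replicate 1 the log2 fold changes were 3.50 and 3.98, the lowest of any fit that left out a library.

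foxd4l1.2.L (chr1L:139746503-139805891) is a tandem relative that lies 51.1 kb from foxd4l1.1.L on the same chromosome, with 1 annotated gene beginning between their starts. It had 1622 and 694 normalized counts in sox8 CRISPR tissue, against 56.2 and 38.9 in the controls. The groups did not overlap, and the log2 fold change of 4.47 (SE 0.86, limma adjusted p = 0.0254) lay between those of the foxd4l1.1 homeologs. Since the foxd4l1 genes are close relatives, reads that match more than 1 of them could be split between them, and the genes are not independent measurements. foxd4l1.1.L accounted for 55.2% and 50.8% of the reads of its homeolog pair in sox8 CRISPR libraries, against 75.4% and 61.2% in the controls.

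**Figure D2:**
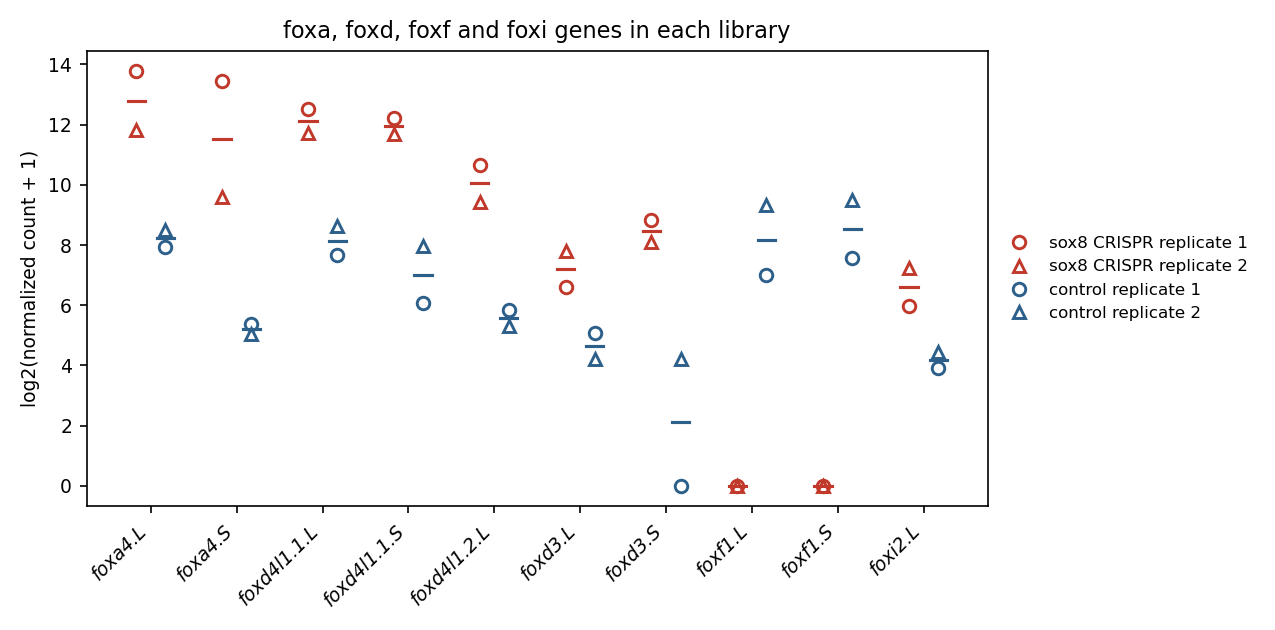
Level on the log2(normalized count + 1) scale (y axis) of the foxa, foxd, foxf and foxi genes with a mean of 50 or more normalized counts (x axis) in each sox8 CRISPR (red) and control (blue) library; circles are replicate 1, triangles are replicate 2 and the short lines are group means. The red points lie above the blue ones for the foxa4, foxd4l1, foxd3 and foxi2.L genes, and both red points of foxf1.L and foxf1.S lie at 0.

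foxd3, which is known both from the Spemann organizer and as a specifier of neural crest, lay above both controls in each sox8 CRISPR library without passing the test. foxd3.S had 458 and 273 normalized counts in sox8 CRISPR tissue, against 0 and 17.5 in the controls (log2 fold change 6.37, SE 1.60, limma adjusted p = 0.131). foxd3.L had 95.6 and 221, against 32.8 and 17.5 (log2 fold change 2.55, SE 1.27, limma adjusted p = 0.756). foxd3.S passed in 3 of 10 fits on all 4 libraries, among them DESeq2 (adjusted p = 1.12e-03), and its adjusted p reached 0.458 without the intensity trend. foxd3.L passed in none of the 10.

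The remaining foxd genes had few reads, at most 38 in a library, and a floor of 3 reads per library was used where a group had none. foxd2.L, from a subfamily expressed in paraxial and lateral mesoderm, had 0 and 0 normalized counts in sox8 CRISPR tissue, against 25.0 and 30.2 in the controls, and was at least 7.61-fold lower, or at least 6.89-fold lower when measured from control replicate 1 alone. It was not called (limma adjusted p = 0.705). foxd2.S had 16.9 and 0, against 3.1 and 0.8, and foxd1.S had 6.9 and 10.9, against 0 and 3.2. Of the 8 foxd genes, 6 had both sox8 CRISPR libraries above both controls (17% of all genes). foxd2.L lay below both (19.1% of all genes), and the groups overlapped for foxd2.S.

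foxf1 showed the opposite pattern. FoxF1 is required in mouse and Xenopus for lateral plate and visceral mesoderm. foxf1.S (chr4S:46026071-46029828) had 0 reads in either sox8 CRISPR library, against 187 and 723 normalized counts in the controls, from 120 and 910 reads. It was at least 126-fold lower in sox8 CRISPR tissue when the mean of the controls was set against the floor, and at least 51.7-fold lower when measured from control replicate 1 alone. It fell by the call rule (limma adjusted p = 0.0436), but only just: it passed in 6 of 10 fits on all 4 libraries, and its adjusted p was 0.0838 with a pseudocount of 0.5, 0.0705 over genes with a mean of 20 or more, 0.0597 with TMM scaling and 0.424 without the intensity trend.

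Its homeolog foxf1.L (chr4L:58365424-58370519) also had 0 reads in both sox8 CRISPR libraries, against 126 and 645 normalized counts in the controls, from 81 and 812 reads. The bound was at least 106-fold lower, or at least 34.9-fold lower from control replicate 1 alone. Its limma adjusted p was 0.0720, so it was not called, and it passed in 4 of 10 fits, among them edgeR (adjusted p = 4.05e-03) and DESeq2 (adjusted p = 2.30e-07). The absence of reads was shared by sox8 CRISPR replicate 1, the deepest library and the one with the fewest genes at 0. foxf2.S, the other foxf gene in the table, had 0 and 0 normalized counts in sox8 CRISPR tissue, against 0 and 20.7 in the controls, and the controls themselves disagreed.

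No ectodermal foxi gene was called by limma, edgeR or DESeq2, and none of the 5 had an unadjusted limma p under 0.05. foxi2.L, a maternal activator of ectodermal foxi genes in Xenopus, had 61.2 and 149.9 normalized counts in sox8 CRISPR tissue, against 14.1 and 20.7 in the controls (log2 fold change 2.42, SE 1.42, limma adjusted p = 0.798). The groups did not overlap, but the gene did not pass. Its homeolog foxi2.S had 31.9 and 0, against 17.2 and 42.1. The fold changes of the pair had opposite signs, with foxi2.S at 0 in the library that was highest for foxi2.L.

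foxi4.2, an activator of ectodermal genes in the Xenopus animal cap, was measured from both homeologs. foxi4.2.S had 73.7 and 0 normalized counts in sox8 CRISPR libraries, against 42.2 and 33.4 in the controls, and foxi4.2.L had 16.9 and 0, against 18.7 and 2.4. foxi1.L, from the subfamily member that specifies ionocytes, had 36.2 and 0, against 6.2 and 7.9. For foxi1.L and foxi4.2.S, sox8 CRISPR replicate 1 lay above both controls and sox8 CRISPR replicate 2 was at 0, so the sox8 CRISPR libraries bracketed the control values. Of the 5 foxi genes, 4 were at 0 in sox8 CRISPR replicate 2 and 0 were at 0 in control replicate 1. These libraries held 18427818 and 18189895 reads, and the cause of the difference was not tested.

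Summed per library, the 14 foxa and foxd genes had 38174 and 12361 normalized counts in the sox8 CRISPR libraries, against 719.9 and 1168 in the controls. Both sox8 CRISPR sums were many times the higher control sum. Their median log2 fold change was 2.40, beside -0.16 over all genes, with 5 called higher and 0 lower (edgeR called the same number in each direction and DESeq2 called 6 higher and 0 lower). The 3 foxf genes summed to 0 and 0, against 314 and 1389, with a median of -8.17, or -6.73 with genes at 0 set to their bound. The 5 foxi genes summed to 219.9 and 149.9, against 98.4 and 107, with a median of -0.95. The foxi sums of the sox8 CRISPR libraries lay above those of the controls while the median fold change was negative. In sox8 CRISPR replicate 2 foxi2.L held the whole sum and the other foxi genes were at 0. Without that library the log2 fold changes of all 5 foxi genes were positive, from 0.23 to 2.21. Without sox8 CRISPR replicate 1 only that of foxi2.L was positive, so the sign of the foxi median is not settled. The 35 Fox genes of other subfamilies summed to 6855 and 3703, against 2694 and 5715, and the groups overlapped.

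The composition of Fox transcripts differed accordingly between the groups. foxa4 and foxd4l1 together made up 82.8% and 73.1% of the summed Fox counts in sox8 CRISPR libraries, against 15.9% and 12.9% in the controls. These sums count reads without correction for transcript length and are read only within the same set of genes across libraries. Fox genes took 0.30% and 0.0728% of all reads in sox8 CRISPR libraries, against 0.0135% and 0.0507% in the controls.

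**Figure D3:**
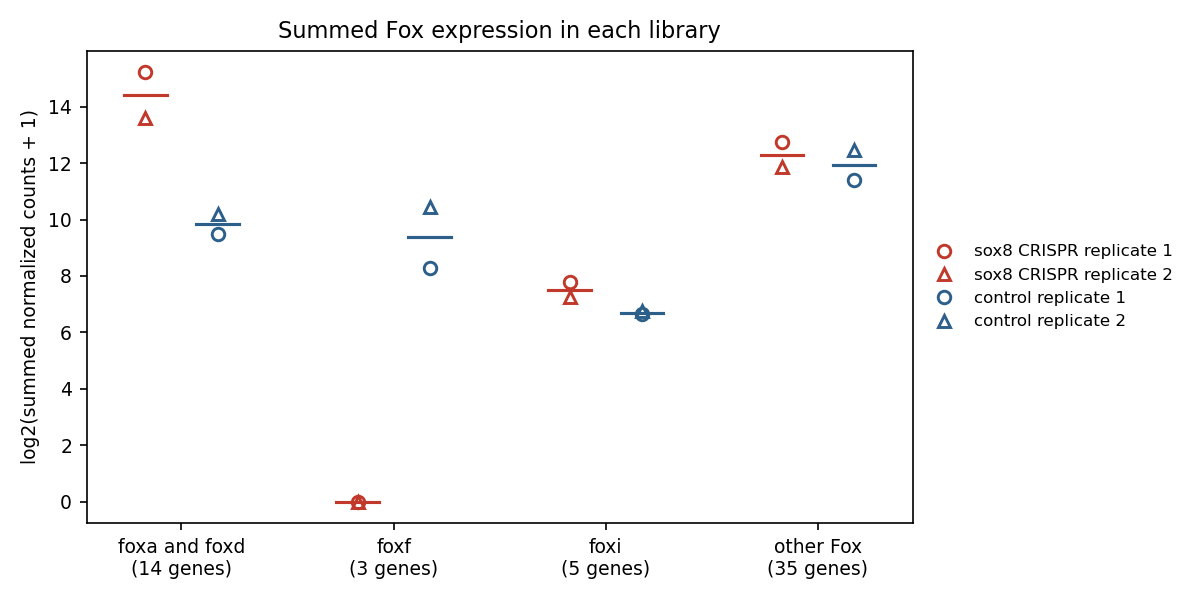
Summed normalized counts plus 1 on the log2 scale (y axis) of the foxa and foxd, foxf, foxi and remaining Fox genes (x axis) in each sox8 CRISPR (red) and control (blue) library; circles are replicate 1, triangles replicate 2, and lines the mean of the log2 sums. The foxa and foxd sums are higher in both sox8 CRISPR libraries, the foxf sums are 0 in both, and the groups overlap for the remaining 35 genes.

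Outside these subfamilies no Fox gene was called by limma, although 4 of 35 had an unadjusted p under 0.05 (6.79% of all genes). edgeR called 1 of the 35 (0.506% of all genes) and DESeq2 called 2 (1.96%). foxj1, the regulator of motile cilia genes, lay nearest to the threshold and is named here after its values were seen. foxj1.S (chr9_10S:40621017-40626244) had 928 and 326 normalized counts in sox8 CRISPR tissue, against 1.6 and 15.9 in the controls (log2 fold change 6.39, SE 1.35, limma adjusted p = 0.0506). It passed in 6 of 10 fits on all 4 libraries, with adjusted p between 3.05e-06 and 0.443 over the 10. foxj1.L had 694 and 0, against 7.8 and 0.8, so the homeologs were alike in sox8 CRISPR replicate 1 and unlike in sox8 CRISPR replicate 2. The log2 fold change of foxj1.L was 2.73, and -1.99 without sox8 CRISPR replicate 1. Of 32 measured genes on a motile cilia list, limma called 1 higher and 0 lower, edgeR 1 higher and DESeq2 6 higher. An unadjusted limma p under 0.05 was found for 7 of them (6.79% of all genes). Both sox8 CRISPR libraries lay above both controls for 14 of them (17% of all genes) and below both for 0 (19.1%). The limma call was tekt1.L, a ciliary tektin, with 525 and 1636 normalized counts in sox8 CRISPR libraries, against 62.5 and 12.7 in the controls (limma adjusted p = 0.0398).

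foxb1 and foxb2 are neural forkhead genes, and foxb1 is also named after its values were seen. foxb1.L had 1080.0 and 191 normalized counts in sox8 CRISPR tissue, against 18.7 and 148 in the controls (log2 fold change 3.07, limma adjusted p = 0.551). foxb1.S had 375 and 39.9, against 4.7 and 16.7 (log2 fold change 3.63, limma adjusted p = 0.699), and was called by DESeq2 (adjusted p = 0.0487). Neither homeolog had overlapping groups, but sox8 CRISPR replicate 2 was much nearer to control replicate 2 than to sox8 CRISPR replicate 1 for each. foxb2.S had 30.0 and 0, against 0 and 0.

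foxc1 and foxc2 are known from paraxial mesoderm and somite formation, and their fold changes had opposite signs, none of them called. foxc2.S had 364 and 251 normalized counts in sox8 CRISPR libraries, against 57.8 and 118 in the controls, and foxc2.L had 194 and 189.8, against 70.3 and 52.5. Both foxc2 homeologs had all sox8 CRISPR values above all control values. foxc1.L had 87.4 and 231, against 195 and 591, and foxc1.S had 165 and 226, against 187 and 554, and for both the groups overlapped. None of the 4 had an unadjusted limma p under 0.05, and neither edgeR nor DESeq2 called any of them. On the v10.1 assembly foxc2 and foxf1 lie on the same chromosomes, 2.94 Mb apart on 4L with 27 annotated genes starting between them, and 2.63 Mb apart on 4S with 23. The foxc2 values were higher and the foxf1 values were 0 in sox8 CRISPR tissue on both chromosomes.

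foxh1, the DNA-binding partner of Smad proteins in Nodal signaling, gave widely scattered values. foxh1.L had 287 and 0 normalized counts in sox8 CRISPR libraries, against 26.5 and 308 in the controls. foxh1.S had 20.6 and 0, against 43.7 and 19.1, and foxh1.2.L had 53.7 and 9.7, against 34.4 and 57.2. All 3 overlapped between the groups, and limma, edgeR and DESeq2 called 0 of them, with 0 at an unadjusted limma p under 0.05. Of 32 measured Nodal pathway genes, limma called 0, edgeR called 2 higher (0.506% of all genes) and DESeq2 6 higher (1.96%). An unadjusted limma p under 0.05 was found for 10 of them (6.79% of all genes). Both sox8 CRISPR libraries lay above both controls for 9 of the 32 (17% of all genes) and below both for 3 (19.1%). This list shares gsc, lhx1 and cer1 with the organizer list below, and eomes, mix1 and mixer with the endodermal list. Its counts are therefore not separate from theirs.

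foxm1.S, an activator of mitotic genes, had 459.7 and 38.7 normalized counts in sox8 CRISPR tissue, against 183 and 929 in the controls (log2 fold change -1.61, SE 1.09, limma adjusted p = 0.821). Its fold change was 0.16 without sox8 CRISPR replicate 2, so its sign rested on that library. foxm1p.L had 0 and 0 normalized counts, against 12.5 and 15.1, and was not called (limma adjusted p = 0.795). None of 40 measured mitotic genes known as FoxM1 targets was called by limma, edgeR or DESeq2, and 0 had an unadjusted limma p under 0.05. Their summed level was 111936 and 232226 normalized counts in sox8 CRISPR libraries, against 231375 and 106532 in the controls, a spread within each group as wide as that between them.

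The FoxO factors are repressed by insulin signaling and act in stress resistance and growth control. foxo4.L had 522 and 6.0 normalized counts in sox8 CRISPR tissue, against 81.2 and 948 in the controls (log2 fold change -2.20, SE 1.54, limma adjusted p = 0.827), and its fold change was 0.90 without sox8 CRISPR replicate 2. The sox8 CRISPR libraries differed by 86.3-fold. foxo3.L had 91.2 and 284, against 95.3 and 174, and the groups overlapped for all 5 foxo genes. None of 33 measured genes downstream of FoxO was called by limma or edgeR, while DESeq2 called 3 higher (1.96% of all genes). Of the 33, 8 had an unadjusted limma p under 0.05. Both sox8 CRISPR libraries lay above both controls for 11 of the 33 (17% of all genes) and below both for 2 (19.1%). The list summed to 32705 and 44708 normalized counts in sox8 CRISPR libraries, against 11178 and 10217 in the controls.

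No foxk, foxn or foxp gene was called. foxn3.L, from a family of repressors linked to cell cycle checkpoints, varied little within each group, with 359 and 413 normalized counts in sox8 CRISPR libraries, against 673 and 662 in the controls (log2 fold change -0.79, SE 0.72, limma adjusted p = 0.864). Both sox8 CRISPR values lay below both controls, but the gene did not pass. foxk2.S had 85.0 and 59.2, against 265 and 110, while its homeolog foxk2.L had 255 and 74.9, against 85.9 and 275. foxn4.L had 0.6 and 0, against 25.0 and 11.9, with 1 and 0 reads against 16 and 15. Of the 15 foxk, foxn, foxo and foxp genes, 3 had both sox8 CRISPR libraries below both controls (foxk2.S, foxn3.L and foxn4.L), with 19.1% of all genes in that position. Both libraries lay above both controls for 0 of the 15, with 17% of all genes in that position. Of these 15, limma, edgeR and DESeq2 called 0, and 0 had an unadjusted limma p under 0.05.

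foxr1.L also had non-overlapping groups without a call, with 164 and 1181 normalized counts, against 149.9 and 43.7 (log2 fold change 2.43, SE 1.03, limma adjusted p = 0.683). The groups nearly touched, since sox8 CRISPR replicate 1 was close to control replicate 1. Without sox8 CRISPR replicate 2, the library with the higher value, the log2 fold change was 1.01. foxq1.L had 21.2 and 1.2, against 0 and 0, and foxl2.L had 0 and 33.8, against 9.4 and 6.4.

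**Figure D4:**
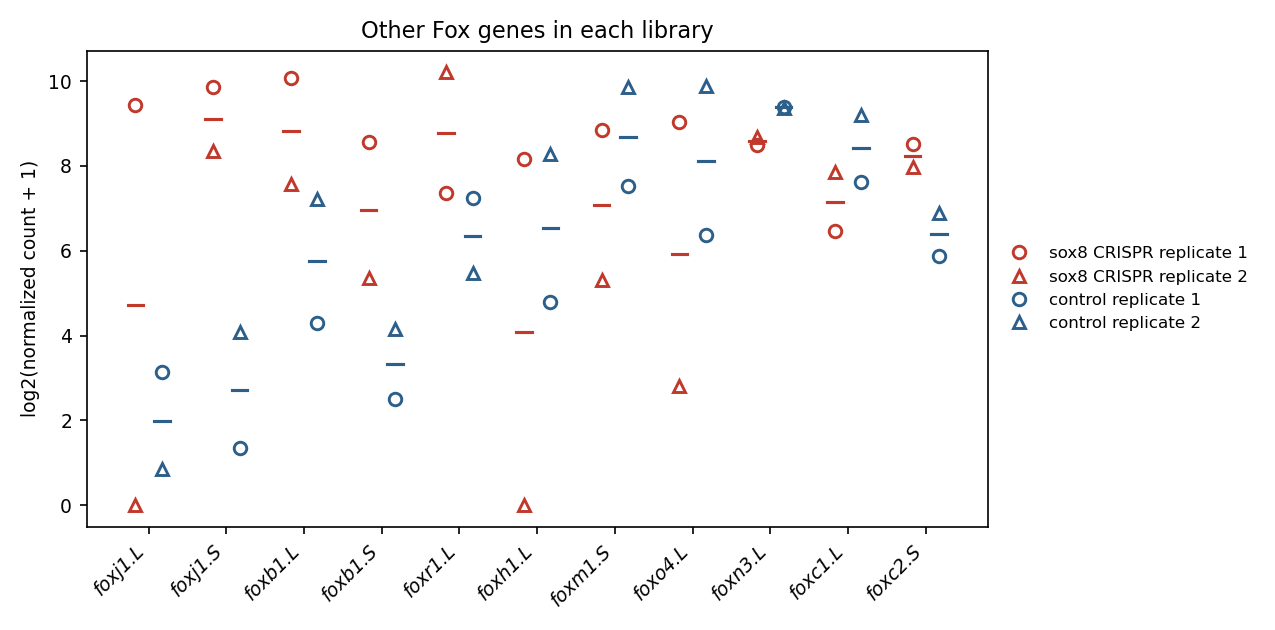
Level on the log2(normalized count + 1) scale (y axis) of 11 Fox genes outside the foxa, foxd, foxf and foxi subfamilies (x axis) in each sox8 CRISPR (red) and control (blue) library; circles are replicate 1, triangles replicate 2 and lines group means. The red points of foxj1.S lie above the blue ones, whereas for foxj1.L, foxh1.L and foxo4.L the red points are spread wider than the distance between the groups.

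Homeologs were compared as a description of how far the subgenomes moved alike. Of 20 homeolog pairs in the table, 16 had fold changes of the same sign and 4 of opposite sign (foxa2, foxd2, foxi2 and foxp1). All 10 pairs in which both genes had a mean of 50 or more normalized counts shared the sign. Within them, foxc1.S, foxj1.L and foxk2.L changed sign when some library was left out. The share over all homeolog pairs of the table was not computed. The pairs of opposite sign each included a gene with a mean under 50. Since reads can be shared between near-identical homeologs, the homeologs of a pair are not independent measurements. The other 17 Fox genes had no partner in the table.

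Marker genes of dorsal and ventral mesoderm, from which Fox genes were left out, moved with foxa4, foxd4l1 and foxf1. Of 22 measured organizer and axial mesoderm genes, limma called 6 higher (0.144% of all genes) and 0 lower (0.19%) in sox8 CRISPR. edgeR called 12 higher (0.506% of all genes in either direction) and DESeq2 14 higher (1.96%). The list had a median log2 fold change of 6.04 (5.72 with genes at 0 set to their bound), beside -0.16 over all genes. The organizer antagonist chordin was among the genes called by limma. chrd.2.L had 11979 and 1483 normalized counts in sox8 CRISPR libraries, against 0 and 0 in the controls. The list summed to 64311 and 7670 normalized counts in sox8 CRISPR libraries, against 943 and 1157 in the controls. In both controls chrd.1.L, chrd.2.L, admp.S, shh.L, shh.S, otx2.L and frzb2.L were at 0. Of these, admp.S and frzb2.L were also at 0 in sox8 CRISPR replicate 2, so each was seen in sox8 CRISPR replicate 1 only. nog.S and frzb.S had negative log2 fold changes (-2.02 and -1.18), and neither was called. Of the 22 genes, 15 had both sox8 CRISPR libraries above both controls (17% of all genes) and 0 had both below (19.1%). The organizer sum of sox8 CRISPR replicate 1 was the higher of its group, as it was for foxa4 and foxd4l1.

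Of 26 measured ventral mesoderm genes, limma called 14 lower (0.19% of all genes) and 0 higher (0.144%). edgeR called 13 lower (0.506% of all genes in either direction) and DESeq2 18 lower (1.96%). The list had a median of -4.57. All 26 had both sox8 CRISPR libraries below both controls, with 19.1% of all genes in that position. szl.S, which encodes the secreted BMP feedback regulator Sizzled, had 8.1 and 1.2 normalized counts in sox8 CRISPR libraries, against 8152 and 3693 in the controls. The list summed to 14642 and 15786, against 105425 and 103625, and gata2.S and evx1.S were at 0 in both sox8 CRISPR libraries. The ventral sums differed little within each group, and the groups were far apart. How far the dorsal and ventral marker levels account for the Fox values was not tested.

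Genes of the lateral plate and visceral mesoderm, the territory of foxf1, gave 1 limma call. Of 14 measured genes, bmp4.S, a ventralizing ligand that is also on the ventral list, was called lower with 231 and 321 normalized counts in sox8 CRISPR libraries, against 3426 and 3333 in the controls (limma adjusted p = 0.0254). edgeR called 0 of the 14 (bmp4.S adjusted p = 0.0527), DESeq2 called 2 lower, and 4 had an unadjusted limma p under 0.05. The list had a median of -1.35 and summed to 1625 and 1524, against 5880 and 6845. bmp4.L and bmp4.S, both on the ventral list too, made up most of these sums, with 1444 and 1490 normalized counts, against 5622 and 6343. Without a call, gata5.S had 0 and 0 normalized counts, against 39.0 and 148.6 in the controls. gata6.S had 0 and 0, against 0 and 67.6, so it was also at 0 in control replicate 1. lmo2.L had 43.1 and 0, against 0 and 0, and bmp2.L had 42.5 and 0, against 0 and 2.4. Of the 14 genes, 5 had both sox8 CRISPR libraries below both controls (19.1% of all genes) and 0 had both above (17%). Most of the other lateral plate genes were themselves scarce, and 10 of the 14 were at 0 in sox8 CRISPR replicate 2. The gata4, gata5 and gata6 genes among the 14 were also on the endodermal list below.

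Of 25 measured neural plate genes, the territory of foxd4l1 and foxb1, limma called 1 higher and 0 lower, edgeR 2 higher and DESeq2 4 higher, with a median of 1.78. The limma call was zic2.S, a zinc-finger factor of the early neural plate, at 1091 and 668 normalized counts in sox8 CRISPR libraries, against 45.3 and 16.7 in the controls (limma adjusted p = 0.0273). The neural sums of 26659 and 71109 normalized counts, against 40526 and 15209, overlapped between the groups and were dominated by the gmnn homeologs. By gene, 13 of the 25 had both sox8 CRISPR libraries above both controls (17% of all genes) and 3 had both below (19.1%). An unadjusted limma p under 0.05 was found for 9 of them (6.79% of all genes). The otx2 homeologs of this list were also on the organizer list. Of 23 measured paraxial mesoderm genes, the territory of foxc1 and foxc2, limma called 1 lower (meox2.S, a somite homeobox gene, at 3.1 and 0 normalized counts, against 749.6 and 448) and 0 higher. edgeR likewise called 1 lower, DESeq2 called 3 higher and 5 lower, 11 had an unadjusted limma p under 0.05, and the median was -1.52. Both sox8 CRISPR libraries lay below both controls for 8 of the 23 (19.1% of all genes) and above both for 4 (17%).

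The epidermal and endodermal lists gave no limma call. Of 22 measured epidermal genes, the territory of foxi, limma and edgeR called 0, DESeq2 called 4 lower and 5 had an unadjusted limma p under 0.05. Their median was 0.05, and they summed to 12288 and 12543 normalized counts in sox8 CRISPR libraries, against 14868 and 9302 in the controls. Both sox8 CRISPR libraries lay below both controls for 8 of the 22 (19.1% of all genes) and above both for 2 (17%). Of 24 measured endodermal genes, the territory of foxa1 and foxa2, limma called 0, edgeR 1 higher, DESeq2 2 higher and 1 lower, and 8 had an unadjusted limma p under 0.05. Their median was -0.74, while they summed to 64886 and 74333 normalized counts in sox8 CRISPR libraries, against 26987 and 49880 in the controls. These sums were dominated by the vegt homeologs. Of the 24 genes, 9 were at 0 in sox8 CRISPR replicate 2. Both sox8 CRISPR libraries lay above both controls for 5 of the 24 (17% of all genes) and below both for 7 (19.1%). The gata4, gata5 and gata6 genes among the 24 were also on the lateral plate list, and eomes, mix1 and mixer on the Nodal list.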

How the data were processed

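RNA-seq of ventral tissue from X. laevis gastrulae gave 2 sox8 CRISPR and 2 control Smart-seq2 libraries. The authors trimmed the reads with cutadapt 4.4, removed ribosomal reads with SortMeRNA, aligned to the v10.1 assembly with HISAT2 2.2.1, counted reads per gene with featureCounts 2.0.6, removed genes with a mean under 5 and divided by DESeq2 size factors. The values the authors deposited are this signal, normalized counts per gene, with no correction for gene length. The use of strand and the handling of reads matching several genes are not given in the sources used here. Whole reads were recovered by division by the smallest step of each library (100% whole, tolerance 0.01), with totals of 18189895 to 24108577 reads. Smart-seq2 reads carry no molecular identifiers, so depth sets the counting error only.

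limma 3.58.1 (R 4.3.3) was fitted on log2(normalized count + 1) over all 21531 genes with an intensity trend, two-sided, with Benjamini-Hochberg adjustment and a log2 threshold of 0.58. A fold change understates low genes on this scale. Against a group at 0, a lower bound was taken as the other group's mean over a floor of 3 reads per library. Alternatives were edgeR 4.0.16 and DESeq2 1.42.0 on recovered reads, pseudocounts of 0.5 and 5, a mean of 20 or more, TMM, quantile normalization, the fold threshold alone, no trend, each library left out and a replicate block. The scripts were tested on simulated data. Coordinates came from the RefSeq annotation of the same assembly, which matched 54 of the 57 Fox genes.

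Full statistics were given to foxa, foxd, foxf and foxi genes with a mean of 50 or more, to called Fox genes and to the 4 other Fox genes with the largest mean; foxj1.S and foxb1 were added after their values were seen, as were foxd2.L and foxm1p.L with their adjusted p. From the marker and target lists only called genes were to be named. Beyond that, gata5.S, bmp4.L, gmnn, vegt, nog.S, frzb.S, lmo2.L, bmp2.L and markers at 0 were named. The Fox genes and all lists were chosen with earlier results of these data known.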

Additional observations from a re-analysis of the deposited data

How the results depend on the processing

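The count of 6 Fox genes called, among 72 of all genes, was 8 (of 109) with edgeR, 10 (of 423) with DESeq2, 5 (of 54) with a pseudocount of 0.5, 9 (of 153) with a pseudocount of 5, 6 (of 88) among genes with a mean of 20 or more, 5 (of 63) with TMM scaling, 9 (of 199) with quantile normalization, 0 without the intensity trend (where limma called 0 of all genes, and 14 Fox genes had an unadjusted p under 0.05), and 47 by the fold threshold alone. foxa4.L, foxa4.S, foxd4l1.1.L, foxd4l1.1.S and foxd4l1.2.L passed in 9 of the 10 fits on all libraries, the exception being the fit without the trend, and the cause was not tested. The changes in call of the other named genes stand beside their values. Leaving out each library gave 0 to 0 called Fox genes, with 1 residual degree of freedom per gene and the lone library assumed to vary like the other group. In these fits the log2 fold change of foxm1.S ranged from -3.38 to 0.16 and that of foxo4.L from -5.31 to 0.90. The other 15 Fox genes with full statistics kept their sign, which was fixed beforehand because their groups did not overlap. Over all 57 Fox genes 26 changed sign when some library was left out. Of these, 10 did so without sox8 CRISPR replicate 1 and 14 without sox8 CRISPR replicate 2.

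With the replicate block, 7 Fox genes and 86 genes in all were called, foxj1.S being added. Same-numbered libraries deviated with a correlation of -0.22 across genes. The labels state no pairing between the groups, and whether any libraries share a batch was not tested. The crossed pairing, chosen after seeing the data, called 11 Fox genes and 776 genes in all.

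The comparison of levels per kilobase of exon was not run, since exon lengths were not used here. The median of all genes was -0.16, against -0.10 after TMM scaling and -0.02 after quantile normalization, 0.07 with edgeR and 0.01 with DESeq2. The median of the Fox genes was -0.03, against 0.02 after TMM scaling and 0.38 after quantile normalization. It was 0.70 with edgeR, 0.53 with DESeq2, -0.15 with a pseudocount of 0.5 and 0.13 with a pseudocount of 5. Among genes with a mean of 20 or more it was -0.15. The 2 libraries per group limit the precision. In sox8 CRISPR replicate 2, with 18427818 reads, 25 Fox genes were at 0. In control replicate 1, with 18189895 reads, 8 were at 0. The cause of the difference was not tested.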
